A study of Abies pinsapo with 24 samples.

Results

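RNA was sequenced from autumn needles of Abies pinsapo (Spanish fir), and the site at the upper edge of its range was set against the site at the lower edge. The comparison holds 6 of the 24 libraries of the series, chosen by organ, season and site as the labels give them, and no measured value entered that choice. The Ronda group comprised needles of 3 trees at 1700 to 1800 m, and the Yunquera group needles of 3 trees at 1100 to 1200 m. All trees were wild adults 30 to 50 years old, harvested in September 2022 with no treatment. The labels number 3 individuals at each site, written here as trees 4, 5 and 6 at Ronda and trees 1, 2 and 3 at Yunquera. The count table lists 51046 features, and 20560 of them carried enough counts for a test.

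Several limits come from the labels. The sampling protocol speaks of 6 independent trees, whereas the design text speaks of a larger random draw on each occasion, and pooling is not stated. Each altitude is represented by 1 site, so altitude and every other property of that site cannot be told apart. Directional and non-directional libraries are both described without a list of which sample received which. A feature is named here by its best protein hit in another species, most often Arabidopsis thaliana, and those names are not established in fir. Near-identical copies, such as the early light-induced proteins, can share reads, and a gene and an antisense neighbour cannot be separated without known strand.

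As background, evergreen conifer needles keep their chlorophyll through seasons in which cold or drought slows carbon fixation. Light that cannot then be used is made harmless by pigment-binding proteins of the thylakoid membrane, among them the early light-induced proteins, and by antioxidants such as ascorbate. Carbon that is fixed but not spent can be stored as starch or turned into soluble sugars such as raffinose. Phosphate-starved plants induce phosphatases, phosphate carriers and enzymes that replace phospholipids, a response worked out mainly in Arabidopsis.

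Library totals were 18517073 to 25119922 counts at Ronda and 16232407 to 18384393 counts at Yunquera. Light-harvesting and photosystem transcripts took 2.86% to 4.35% of the counts at Ronda and 3.20% to 4.78% at Yunquera, and in the 11 root libraries that match their label they took 0.0612% to 0.235%. The needle label thus held in all 6 libraries. A spring needle library of Ronda, outside the comparison, had 0.101% and was left out of the fit. Features that were either on or off in each tree gave a check of tree identity: 5 of the 6 libraries matched other libraries of their own tree at 98.2% to 100% of 54 to 55 features. The autumn needles of Yunquera tree 1 matched the roots of tree 1 at 69.8% of 53 features and tree 6 at 81.1%, so results are also given without both needle libraries of tree 1. The p-values rest on the spread within 4 groups of 11 needle libraries, the 6 compared and 5 of spring. All were taken as separate trees, although both seasons carry the same tree numbers.

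Needles differed between the sites in 352 features by edgeR's quasi-likelihood test (Benjamini-Hochberg adjusted p below 0.05), which is 1.71% of those tested. At Ronda 227 features (1.1%) were higher and 125 features (0.608%) were lower than at Yunquera. In all 352 the 3 Ronda values lay apart from the 3 Yunquera values, as they did in 15% of all features on the higher side and 12.7% on the lower side. At least a 2-fold difference was reached by 201 of the higher and 85 of the lower features. A log2 fold change of at least 3 was reached by 60 and 14. The median log2 fold change over all features was 0.01, a value that the normalisation holds near 0.

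The number of calls rested on every library. It was 131, 118 and 88 without Ronda trees 4, 5 and 6, and 218, 85 and 28 without Yunquera trees 1, 2 and 3. Without both needle libraries of tree 1 it was 414, of which 220 were among the 352. With the root-like spring library kept in the fit as labelled, 36 features were called, all of them among the 352. None of the early light-induced, low-phosphate or ascorbate features described below was among these 36, and the starch call that remained was 1 of 6.

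**Figure D1:**
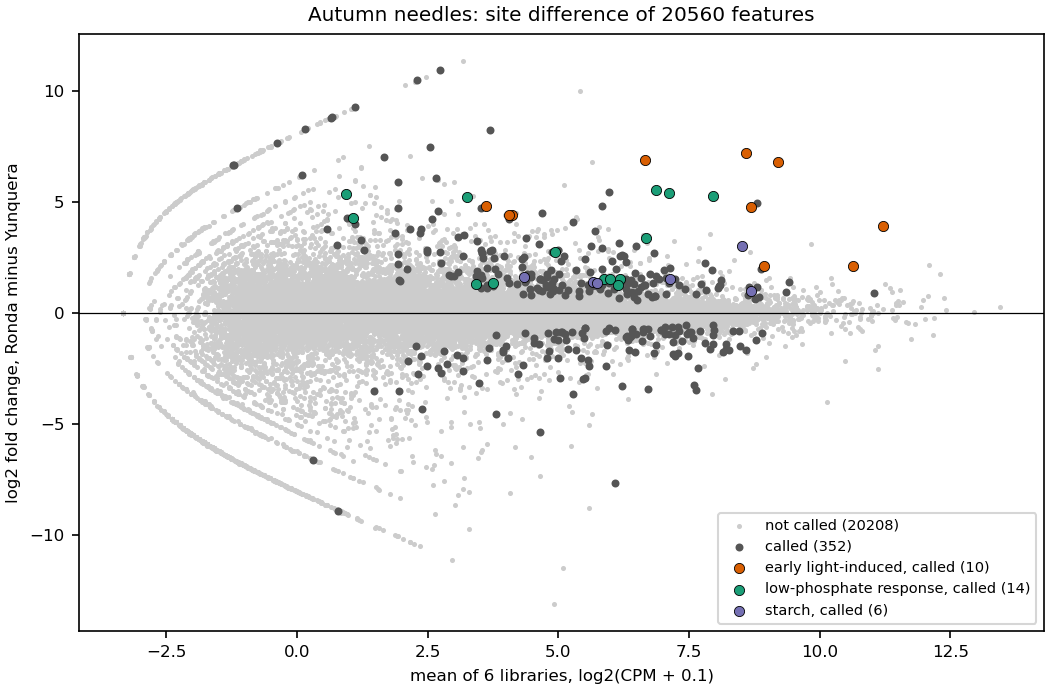
Each point is a feature, with the mean of the 6 libraries as log2(CPM + 0.1) on the x axis and the log2 fold change, Ronda minus Yunquera, on the y axis. Grey points are the 20208 features not called and dark points the 352 called; the 10 early light-induced, 14 low-phosphate response and 6 starch features that were called all lie above 0.

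The early light-induced proteins (ELIPs), which bind pigments in stressed or greening chloroplasts, had the highest median difference of the lists examined. All 17 features with such a best hit in the table were tested, and 10 were called higher at Ronda and 0 lower, or 58.8% against 1.71% of all features. The pattern that defines this list was adjusted after values were seen, so the share is a description only. The median log2 fold change of the 17 was 4.43, against 0.01 over all features. As a family the ELIPs took 0.967% to 1.27% of all counts at Ronda and 0.135% to 0.150% at Yunquera, so the groups lay far apart in every autumn library. In spring needles the sites lay much closer, with 0.742% and 0.531% in Ronda trees 4 and 5 and 0.165%, 0.318% and 0.507% in Yunquera trees 1, 2 and 3. Levels are normalised read counts (CPM), scaled to a common library total, and the error of a log2 fold change is its standard error (SE).

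The most abundant member, Gene_2963, reached 2927, 5043 and 5417 CPM in Ronda trees 4, 5 and 6, against 283, 259 and 338 CPM in Yunquera trees 1, 2 and 3. The lowest Ronda value was thus far above the highest Yunquera value, at a log2 fold change of 3.94 (SE 0.64, edgeR adjusted p = 0.0218). Gene_2947 had 2331, 2462 and 2992 CPM at Ronda, against 620, 680 and 507 CPM at Yunquera, a log2 fold change of 2.13 (SE 0.34, edgeR adjusted p = 0.0218). These features were already abundant at the lower site.

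Other members were far lower at Yunquera. Gene_8363, with Arabidopsis ELIP1 as best hit, had 1555, 894 and 1069 CPM at Ronda and 7.30, 10.4 and 14.8 CPM at Yunquera, a log2 fold change of 6.79 (SE 1.18, edgeR adjusted p = 0.0254). Gene_44285, the ELIP2 hit, had 171, 354 and 78.5 CPM at Ronda and 1.18, 2.31 and 1.56 CPM at Yunquera (log2 fold change 6.91, SE 1.14, edgeR adjusted p = 0.0222). Gene_72882 had 517, 1189 and 588 CPM at Ronda and 1.86, 7.55 and 6.42 CPM at Yunquera, the largest fold of the family (log2 fold change 7.20, SE 1.47, edgeR adjusted p = 0.0464). In all 3 the Ronda trees varied among themselves by up to several fold and still lay above every Yunquera tree.

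The remaining called members were Gene_2888, Gene_5671, Gene_71524, Gene_4036 and Gene_81559, whose best hit is the desiccation protein DSP-22 of the resurrection plant Craterostigma. Their log2 fold changes were 4.79, 4.44, 4.43, 2.12 and 4.81. Of the 7 members not called, Gene_79205, Gene_24209 and ap_76130 had log2 fold changes of 6.80, 5.99 and 3.19, with every Ronda value above every Yunquera value and adjusted p of 0.0767, 0.113 and 0.0524. Gene_228 had 491, 386 and 426 CPM at Ronda and 321, 295 and 329 CPM at Yunquera, and its log2 fold change of 0.49 (SE 0.24) was not called. A second DSP-22 hit, ap_2935, overlapped between the groups, and neither Gene_44005 nor Gene_50299 was called. Gene_44005 had 0, 0.0904 and 0 CPM at Ronda and 0, 1.16 and 0 CPM at Yunquera, and Gene_50299 had counts in Yunquera tree 2 alone, at 0.244 CPM.

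The count of 10 became 0 without Yunquera tree 1, 2 or 3 and 1, 2 and 1 without Ronda trees 4, 5 and 6, while the list's median log2 fold change stayed between 4.04 and 4.56 in those 6 fits. Without both needle libraries of tree 1 the number was again 10. It was 13 in the 6 autumn needle libraries alone and 12 by DESeq2, but 3 in the 12 autumn libraries and 0 with all 12 needle libraries as labelled. The lists nearest in function did not share the high median. Median log2 fold changes were -0.23 over 78 light-harvesting and photosystem features and 0.15 over 28 other photoprotection and carotenoid features. The median over 39 carbon fixation features was 0.14. EdgeR called 0 of these features in either direction. It called 1.71% of all features, a share at which lists of this size would hold few or no calls. DESeq2 called 4 higher and 1 lower, 1 higher and 2 lower, and 2 higher and 0 lower in these 3 lists. Over all 20560 features DESeq2 called 1109 higher and 1113 lower. The light-harvesting pattern was adjusted after values were seen.

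**Figure D2:**
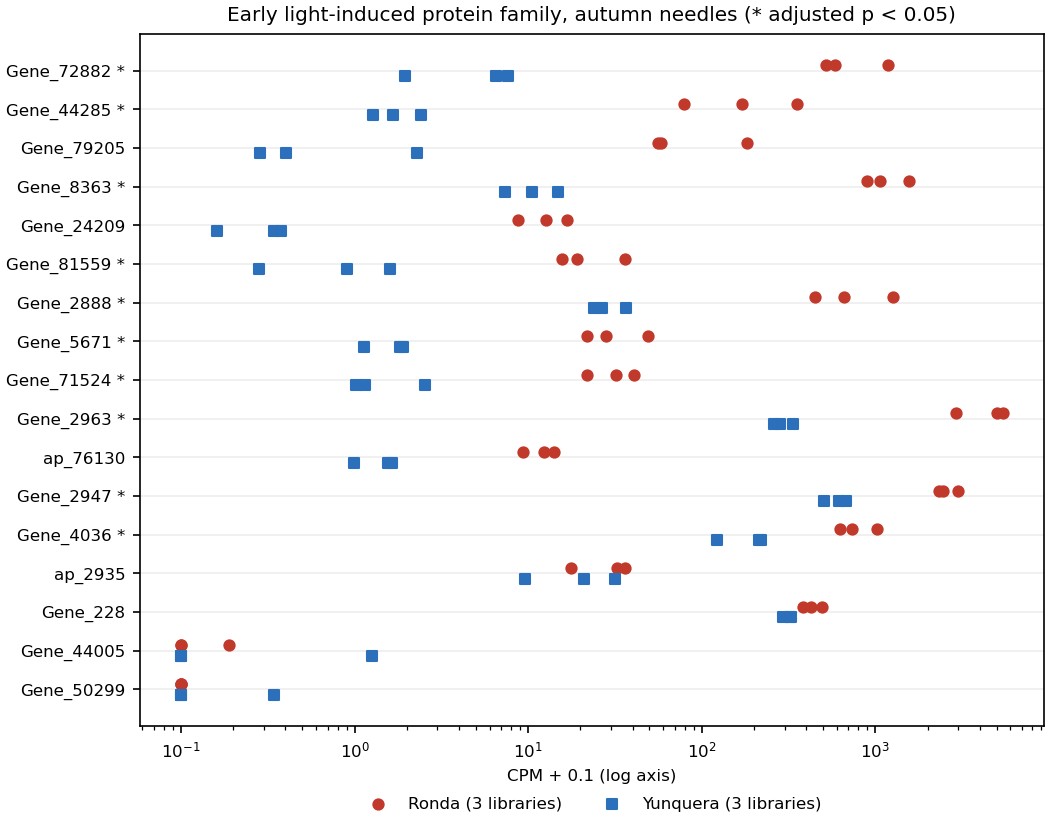
Levels of the 17 early light-induced features, 1 per row, as CPM + 0.1 on a log axis; circles are the 3 Ronda libraries and squares the 3 Yunquera libraries, and a star marks adjusted p below 0.05. In 14 of the 17 rows all 3 circles lie to the right of all 3 squares.

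Part of the starch pathway was higher at Ronda. Of 47 starch features tested, 6 were called higher and 0 lower, or 12.8% against 1.71% of all features. The list's median log2 fold change was 0.17. The 6 encode the enzyme that makes the glucosyl donor for starch and the enzyme that builds amylose from it. Granule-bound starch synthase (GBSS1, Gene_39210) had 588, 794 and 576 CPM at Ronda and 84.6, 104 and 54.8 CPM at Yunquera. Every Ronda tree lay far above every Yunquera tree, and the log2 fold change was 3.03 (SE 0.32, edgeR adjusted p = 0.00691). It was called without any of the 6 libraries.

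The other 5 were subunits of ADP-glucose pyrophosphorylase, the committed step of starch synthesis. The small subunit, Gene_5687, had 494, 594 and 543 CPM at Ronda and 294, 241 and 288 CPM at Yunquera, a log2 fold change of 1.00 (SE 0.16, edgeR adjusted p = 0.0208). Large subunits Gene_75081, Gene_3470, Gene_29861 and ap_73588 had log2 fold changes of 1.61, 1.56, 1.37 and 1.38. A further large subunit, AGPL1 (Gene_13043), had a log2 fold change of -0.76 and was not called (edgeR adjusted p = 0.0826). The starch count of 6 became 3, 2 and 2 without Ronda trees 4, 5 and 6, and 3, 3 and 1 without Yunquera trees 1, 2 and 3. The count without both needle libraries of tree 1 was 5.

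Soluble sugar genes went both ways. Of 71 sucrose, trehalose and raffinose features, 3 were called higher and 3 lower, or 8.45% against 1.71% of all features. The pattern of this list was also adjusted after values were seen. Galactinol synthase (GOLS2, Gene_10499), which makes the galactosyl donor for raffinose, had 22.5, 63.6 and 62.4 CPM at Ronda and 2.79, 1.10 and 2.57 CPM at Yunquera (log2 fold change 4.52, SE 0.89, edgeR adjusted p = 0.0400). Raffinose synthase (RFS, ap_60466), the next enzyme, had 151, 110 and 167 CPM at Ronda and 48.7, 45.4 and 49.9 CPM at Yunquera, with a log2 fold change of 1.60 (SE 0.28, edgeR adjusted p = 0.0266). An alkaline/neutral invertase (INVB, Gene_70430), which splits sucrose, had a log2 fold change of 1.75. These 3 lie outside the naming rule and were chosen after their values were seen.

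Other galactinol synthase features did not pass the threshold. Another galactinol synthase, GOLS1 (ap_34676), had a log2 fold change of 3.77, whereas GOLS4 (Gene_73279) and a second GOLS2 hit (ap_17595) had -2.14 and -3.41. Their edgeR adjusted p-values were 0.0530, 0.0637 and 0.0874.

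On the lower side stood trehalose-phosphate synthases and sucrose synthase. TPS6 (Gene_11901), a class II trehalose-phosphate synthase homologue of the sugar-signalling family, had 76.6, 61.7 and 68.3 CPM at Ronda and 176, 238 and 314 CPM at Yunquera. That is a log2 fold change of -1.79 (SE 0.24, edgeR adjusted p = 0.0137), with tight Ronda values and scattered Yunquera values. TPS9 (Gene_844) and sucrose synthase SUS4 (Gene_39876) had log2 fold changes of -1.77 and -1.57. The count of 3 higher became 0, 1 and 0 without Ronda trees 4, 5 and 6 and 0 without Yunquera tree 1, 2 or 3. That of 3 lower became 1, 2 and 0 without those Ronda trees, and 3, 1 and 0 without those Yunquera trees.

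Phosphoenolpyruvate carboxykinase, an enzyme of organic acid metabolism, was lower at Ronda. Of 63 gluconeogenesis and organic acid features, 0 were called higher and 2 lower, or 3.17% against 1.71% of all features. Phosphoenolpyruvate carboxykinase (PCK1, Gene_33450), the entry step of gluconeogenesis, had 5.63, 5.11 and 6.25 CPM at Ronda and 103, 49.4 and 63.5 CPM at Yunquera. The log2 fold change was -3.66 (SE 0.46, edgeR adjusted p = 0.0111), and the gene was called without any of the 6 libraries. The plastid malic enzyme (MOD1, ap_50537) had 15.2, 14.9 and 13.0 CPM at Ronda and 26.3, 38.7 and 31.2 CPM at Yunquera (log2 fold change -1.13, SE 0.22, edgeR adjusted p = 0.0407). Its call was lost without any of the 6 libraries, and the count of 2 was 1 in each of those fits.

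**Figure D3:**
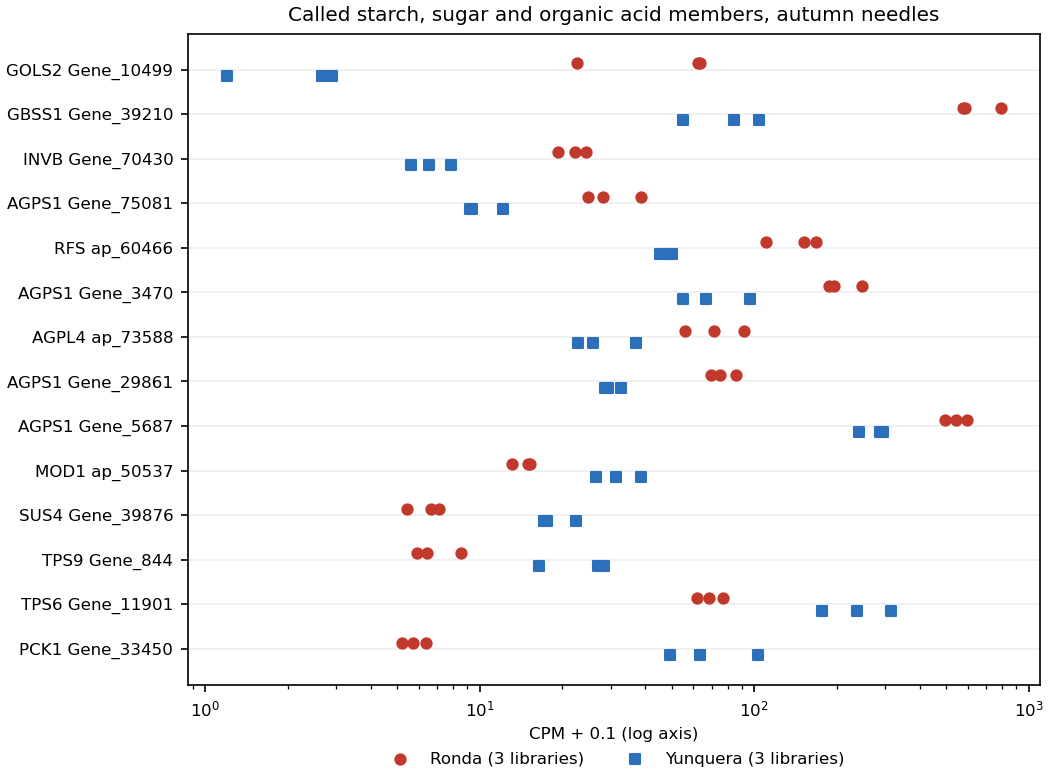
Levels of the 14 called starch, sugar and organic acid features, 1 per row, as CPM + 0.1 on a log axis; circles are the 3 Ronda libraries and squares the 3 Yunquera libraries. The upper 9 rows are higher at Ronda and the lower 5 rows are lower, and no row overlaps.

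Some genes known in Arabidopsis for the response to low phosphate were higher at Ronda. The list was drawn up and then narrowed after values were seen, so its count is a description only. Of 82 features tested, 14 were called higher and 0 lower, or 17.1% against 1.71% of all features, with a median log2 fold change of 0.56. A wider form that also read domain text held 117 features, of which 15 were higher and 0 lower.

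Of these, 3 had the best hit Inorganic pyrophosphatase 2 (At1g17710), a phosphatase that Arabidopsis induces under phosphate starvation. Gene_6307 had 357, 335 and 116 CPM at Ronda and 8.29, 6.51 and 4.63 CPM at Yunquera (log2 fold change 5.40, SE 0.49, edgeR adjusted p = 0.00432). The second, ap_85965, had 583, 649 and 219 CPM at Ronda and 14.4, 13.7 and 10.2 CPM at Yunquera, a log2 fold change of 5.27 (SE 0.50, edgeR adjusted p = 0.00544). Both were called without any of the 6 libraries, and the third, ap_11250, had a log2 fold change of 5.54. Tree 6 was the lowest of the Ronda trees in all 3, well under the other Ronda trees, and was still far above Yunquera.

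Sensors and carriers followed. SPX1 (Gene_62996), a phosphate-sensing regulator, had 3.25, 6.19 and 1.22 CPM at Ronda and 0.0619, 0.122 and 0.0558 CPM at Yunquera (log2 fold change 5.39, SE 1.03, edgeR adjusted p = 0.0361). The mitochondrial phosphate carriers MPT3 (Gene_12301 and Gene_37600) had log2 fold changes of 5.22 and 4.27. A PHO1-type exporter (PHO1-2, Gene_71558) and an SPX-domain membrane protein (At4g22990, Gene_17111) had 1.29 and 1.26.

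Enzymes that free phosphate from esters and lipids were among the 14. The purple acid phosphatase PAP4 (Gene_28929) had 245, 208 and 103 CPM at Ronda and 15.8, 19.5 and 19.9 CPM at Yunquera (log2 fold change 3.36, SE 0.52, edgeR adjusted p = 0.0206). The glycerophosphodiesterase GDPD2 (Gene_29207), which acts on the remains of phospholipids, had 73.8, 63.0 and 22.5 CPM at Ronda and 6.56, 8.04 and 9.27 CPM at Yunquera (log2 fold change 2.77, SE 0.46, edgeR adjusted p = 0.0222). SQD1 (Gene_18308), which makes the head group of the sulfolipid that can stand in for phospholipid, had 101, 144 and 76.9 CPM at Ronda and 35.0, 37.0 and 40.8 CPM at Yunquera (log2 fold change 1.53, SE 0.32, edgeR adjusted p = 0.0491). The PAP27 hits Gene_38163 and Gene_31516 and the PAP29 hit Gene_5234 had log2 fold changes of 1.54, 1.54 and 1.34.

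The count of 14 became 3, 2 and 7 without Ronda trees 4, 5 and 6, and 4, 2 and 2 without Yunquera trees 1, 2 and 3. With both needle libraries of tree 1 left out it was 6.

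Ascorbate synthesis formed a smaller group of the same kind, also added after values were seen. Of 25 features, 6 were called higher and 0 lower, or 24% against 1.71% of all features, with a median log2 fold change of 0.34. A wider form that also read domain text held 29 features, with 6 higher, 0 lower and a median of 0.08. GDP-L-galactose phosphorylase (VTC2), the controlling step of the plant pathway, had 6 tested hits, of which 3 were called. Gene_13529 had 557, 629 and 662 CPM at Ronda and 242, 292 and 288 CPM at Yunquera (log2 fold change 1.19, SE 0.16, edgeR adjusted p = 0.0144). Gene_67327, with a log2 fold change of 1.34, was called without any of the 6 libraries, and ap_3810 had 1.28. Of the VTC2 hits not called, Gene_13471 averaged 252 ± 42.4 CPM at Ronda and 251 ± 12 CPM at Yunquera (SD, n = 3 each), and ap_9961 230 ± 34.2 CPM at Ronda and 237 ± 7.47 CPM at Yunquera. The low Gene_8197 had a log2 fold change of 1.87 (edgeR adjusted p = 0.0696).

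VTC4, a phosphatase that acts in ascorbate synthesis and also on inositol phosphates, had 3 tested hits, of which 2 were called. Gene_4056 had 491, 380 and 237 CPM at Ronda and 82.5, 76.2 and 75.3 CPM at Yunquera (log2 fold change 2.27, SE 0.37, edgeR adjusted p = 0.0218), and Gene_22823 had a log2 fold change of 2.56. The third, Gene_16835, had -0.32 (SE 0.28) and was not called. The sixth was PMI1 (Gene_5673), which feeds mannose into the pathway, with a log2 fold change of 0.67. The count of 6 was 5, 4 and 3 without Ronda trees 4, 5 and 6, and 4, 2 and 1 without Yunquera trees 1, 2 and 3. It was 4 without both needle libraries of tree 1.

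**Figure D4:**
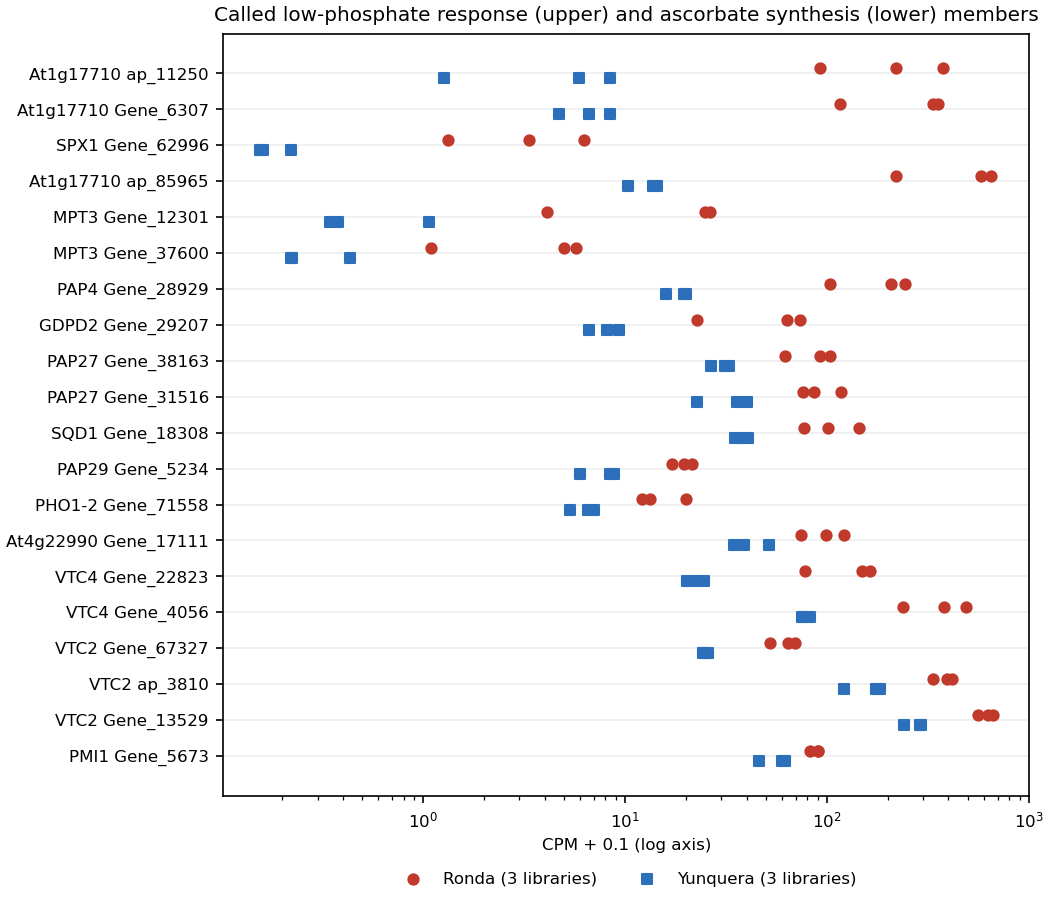
Levels of the 14 called low-phosphate response features (upper rows) and 6 called ascorbate synthesis features (lower rows) as CPM + 0.1 on a log axis; circles are the 3 Ronda libraries and squares the 3 Yunquera libraries. All circles lie to the right of all squares in every row.

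Some antioxidant enzymes were higher at Ronda. Of 344 antioxidant and glutathione features, edgeR called 11 higher and 0 lower, or 3.20% against 1.71% of all features. DESeq2 called 31 higher and 22 lower, against 1109 higher and 1113 lower of all 20560 features. The list's median of 0.02 was close to that of all features. The edgeR counts were 7 higher and 3 lower with both needle libraries of tree 1 left out, and 9 higher and 3 lower in the 6 libraries alone. Peroxidase 5 (Gene_18206), a class III peroxidase of the cell wall type, had 95.9, 136 and 177 CPM at Ronda and 31.6, 41.1 and 46.8 CPM at Yunquera (log2 fold change 1.79, SE 0.23, edgeR adjusted p = 0.0111). The glutathione transferase GSTU18 (Gene_22298) had 72.2, 98.4 and 75.8 CPM at Ronda and 35.0, 32.3 and 29.4 CPM at Yunquera (log2 fold change 1.37, SE 0.17, edgeR adjusted p = 0.0110). Higher calls numbered 6, 4 and 2 without Ronda trees 4, 5 and 6, and 4, 2 and 1 without Yunquera trees 1, 2 and 3.

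Of 155 fatty acid and membrane lipid features, 5 were called higher at Ronda and 3 lower, or 5.16% against 1.71% of all features. All 5 have a desaturase as best hit; of the 29 tested features with such a hit, a set counted after values were seen, 24 were not called. FAD4 (Gene_21910), which in Arabidopsis desaturates plastid phosphatidylglycerol, had 72.3, 111 and 119 CPM at Ronda and 12.3, 13.3 and 15 CPM at Yunquera (log2 fold change 2.91, SE 0.34, edgeR adjusted p = 0.00975). A plastid omega-6 desaturase (Gene_52240) had a log2 fold change of 1.34, and FAD6 (Gene_12968), FAD12 (Gene_5127) and a second FAD4 hit (ap_71252) had 1.22, 3.15 and 2.86. The 3 lower features included the storage-oil lipase SDP1 (Gene_41230) at -0.96 and a phospholipase A2 homologue (PLA2-I, Gene_4611) at -1.06. Higher calls in this list numbered 3, 2 and 1 without Ronda trees 4, 5 and 6, and 2, 1 and 0 without Yunquera trees 1, 2 and 3. Lower calls numbered 1, 1 and 0 without those Ronda trees and 2, 0 and 0 without those Yunquera trees.

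Cell wall, phenylpropanoid and flavonoid lists had raised medians, and the number of calls depended on the tool, as it did over all features. The median log2 fold changes were 0.80 over 208 cell wall features, 0.81 over 88 phenylpropanoid and lignin features and 0.93 over 119 flavonoid features. The 3 Ronda values lay above the 3 Yunquera values in 75, 31 and 46 of them, against the 15% of all features. In the cell wall list, whose pattern was adjusted after values were seen, edgeR called 6 higher and 0 lower. That is 2.88% against 1.71% of all features, and DESeq2 called 39 higher and 5 lower. In the other pair edgeR called 0. There DESeq2 called 9 higher and 3 lower among phenylpropanoid features and 18 higher and 5 lower among flavonoid features. Over all 20560 features tested DESeq2 called 1109 higher and 1113 lower. The cell wall calls included the polygalacturonase QRT3 (Gene_7522), a pectin-cutting enzyme, with a log2 fold change of 1.33, and the cellulose synthase-like CSLB2 (ap_1268) with 2.82. The cell wall count of 6 became 1, 2 and 2 without Ronda trees 4, 5 and 6, and 7, 2 and 0 without Yunquera trees 1, 2 and 3. The count was 13 without both needle libraries of tree 1.

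A disease resistance receptor was present at Ronda and absent from the counts at Yunquera. Of 215 such features, 1 was called higher and 2 lower, or 1.40% against 1.71% of all features, with a median of -0.19. The counts were 3 higher and 1 lower without both needle libraries of tree 1. SUMM2 (Gene_75900), an intracellular immune receptor in Arabidopsis, had 10.9, 20.3 and 8.02 CPM at Ronda and no count in any Yunquera library. Set against 3 counts over the summed Yunquera totals, the Ronda level was at least 214-fold higher (edgeR adjusted p = 0.0144). The receptors L6 (Gene_81291) and VICTR (Gene_23469) were expressed at both sites, with log2 fold changes of -2.62 and -2.16. In all, 9 called features had no count at Yunquera and 1 had none at Ronda.

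Among other features with few or no counts at Yunquera were small MYB-like RADIALIS proteins, which in Arabidopsis are single-repeat MYB relatives. RL1 (Gene_74740) had 5.31, 6.10 and 17.6 CPM at Ronda and no count at Yunquera, at least 160-fold higher (edgeR adjusted p = 0.0208). The RL5 hit Gene_35668 had 35.6, 28.2 and 13.3 CPM at Ronda and 0, 0.183 and 0.0558 CPM at Yunquera. The other RL5 hit, ap_71523, had 697 counts at Ronda and 3 at Yunquera, a ratio of 180 with a 95% counting interval of 61.4 to 875. All 3 Ronda trees carried these transcripts.

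In the opposite direction, a ROOT HAIR DEFECTIVE 3 homologue (At1g72960, Gene_85068), from a family that shapes the endoplasmic reticulum, had 0.433, 0.994 and 0.498 CPM at Ronda and 129, 142 and 134 CPM at Yunquera. The log2 fold change was -7.68 (SE 1.43, edgeR adjusted p = 0.0329). The call was lost in each of the 6 fits without 1 library, although the 3 autumn values of each group were close together. In the spring needles of the same fit it had 0.608, 54.0 and 89.6 CPM in Yunquera trees 1, 2 and 3, and 0.406 and 0.834 CPM at Ronda. The edgeR adjusted p was 0.000766 in the 6 autumn libraries alone and 0.00214 without both needle libraries of tree 1. The part of the spring spread in the lost calls was not tested. An F-box protein (At5g43190, Gene_17001) had 1.30, 1.04 and 0.997 CPM at Ronda and 30.6, 21.7 and 27.2 CPM at Yunquera (log2 fold change -4.55, SE 0.48, edgeR adjusted p = 0.00691).

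Further large falls at Ronda were a peroxygenase (Gene_7751) at -5.38, the beta-galactosidase BGAL8 (Gene_78289) at -4.32, a calmodulin (Gene_3049) at -3.31, a sulfite exporter family protein (At2g25737, Gene_25408) at -3.25 and MEE14 (Gene_52121) at -2.93 on the log2 scale. In each the groups lay apart. The Yunquera trees themselves differed widely in some of them: the sulfite exporter feature had 39.4, 27.0 and 40.5 CPM at Ronda and 121, 487 and 439 CPM at Yunquera.

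Ubiquitin, chaperone and transcription factor lists held calls in both directions or few calls. Of 753 ubiquitin and proteasome features, 5 were higher and 8 lower, or 1.73% against 1.71% of all features. The counts were 2 higher and 13 lower without both needle libraries of tree 1. They were 2, 1 and 2 higher and 1, 1 and 2 lower without Ronda trees 4, 5 and 6, and 2, 1 and 1 higher and 9, 1 and 1 lower without Yunquera trees 1, 2 and 3. A polyubiquitin (UBI11, Gene_75876) had 117, 114 and 100 CPM at Ronda and 4.52, 4.02 and 3.46 CPM at Yunquera, with little spread in either group (log2 fold change 4.81, SE 0.39, edgeR adjusted p = 0.00392). XERICO, a RING protein that promotes abscisic acid accumulation in Arabidopsis, had a pair of called hits with opposite signs: Gene_6693 at 6.09 and Gene_4586 at -2.05. The heat shock and chaperone list gave 3 higher and 2 lower of 255, or 1.96% against 1.71% of all features. Among the higher was a response regulator (RR41, Gene_30505), listed through the HSP90-like ATPase in its domain text and not a chaperone by its best hit. The lower features included the plastid chaperone ATJ8 (Gene_4865), with 49.0, 70.6 and 69.5 CPM at Ronda and 247, 186 and 253 CPM at Yunquera. Its log2 fold change was -1.85 (SE 0.21, edgeR adjusted p = 0.00943).

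Among transcription factors, MYB6 (ap_15471), a repressor of the MYB family, had a log2 fold change of 2.82, APETALA 2 (Gene_68412) 1.07 and NAC056 (Gene_78024) -1.69. Ammonium transporters of the AMT3-1 type (Gene_58107 and Gene_10303) had 1.78 and 1.28, the only calls among 97 nitrogen features, or 2.06% against 1.71% of all features. Without both needle libraries of tree 1 neither transporter was called (edgeR adjusted p = 0.0792 and 0.0732). In that fit 3 nitrogen features were called higher and 0 lower. The vitamin B6 enzyme PDX1 (Gene_4354) was among the most abundant called genes, with 477, 886 and 882 CPM at Ronda and 184, 170 and 226 CPM at Yunquera (log2 fold change 1.96, SE 0.34, edgeR adjusted p = 0.0247).

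Hormone and clock lists gave no or few calls. Abscisic acid (23 features), jasmonate and ethylene (84), circadian clock and photoreceptors (66) and WRKY factors (23) had 0 calls by edgeR. The share called over all features was 1.71%, at which lists of this size would hold few or no calls. DESeq2 called 0 higher and 1 lower, 3 higher and 8 lower, 2 higher and 4 lower, and 0 higher and 1 lower. Over all 20560 features DESeq2 called 1109 higher and 1113 lower. Auxin, gibberellin and cytokinin features gave 1 higher and 2 lower of 101 by edgeR, or 2.97% against 1.71%. The dehydrin and LEA list, whose pattern was adjusted after values were seen, gave 1 higher and 1 lower of 40. That is 5% against 1.71% of all features. The higher feature was a desiccation-related protein, PCC13-62 (Gene_6086), which carries a ferritin-like domain and is not named as a dehydrin or LEA protein. It had 7.04, 12.7 and 26.0 CPM at Ronda and 0.867, 2.07 and 1.34 CPM at Yunquera (log2 fold change 3.43, SE 0.60, edgeR adjusted p = 0.0255). Without both needle libraries of tree 1 it was not called (edgeR adjusted p = 0.0633).

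Sequence from other organisms differed between libraries. Of 805 features with a fungal best hit, 3 were called higher and 2 lower, or 0.621% against 1.71% of all features. The median log2 fold change of the 805 was -3.69. Of these 805, 324 had over 90% of their summed CPM in Yunquera tree 2 alone, and the other 5 libraries had 0 to 4 such features each. Of all 20560 features tested, 751 lay in Yunquera tree 2 by the same measure, and 4 to 120 in each of the other 5 libraries. Features with fungal best hits took 0.672% to 0.725% of counts at Ronda and 0.887% to 1.08% at Yunquera. The part of fungal RNA in the other results was not tested. Pollen and reproductive features took 0.146% to 0.267% of counts at Ronda and 0.220% to 0.513% at Yunquera.

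The called features were then followed into the other libraries of the same sites. Spring needles gave 2 usable Ronda libraries against 3 of Yunquera. Of the 227 features higher in autumn, 148 (65.2%) also had every spring Ronda value above every spring Yunquera value, as 12.5% of all tested features did, and 4 had the opposite order. Of the 125 lower features, 66 (52.8%) kept the lower order in spring, against 12% of all features, and 1 was opposite. Shared tree numbers, which may name the same trees, and a shared estimate of spread link the seasons, so these shares are not independent of the autumn result.

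The spring differences were smaller in size. The median log2 fold change of the higher features was 1.75 in autumn and 0.72 in spring, and that of the lower features was -1.41 in autumn and -0.43 in spring. Features were chosen for a large autumn value, so a smaller value elsewhere was built into the choice. In spring needles as a whole, 0 features (0%) passed the edgeR threshold, with 2153 at an unadjusted p below 0.05. The test of whether the site difference itself changed between seasons called 0 features by edgeR (0%, with 1369 at an unadjusted p below 0.05), 220 by DESeq2 and 0 by limma.

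Autumn roots of the same sites carried part of the pattern. Of 226 higher features with root values, 67 (29.6%) had all Ronda roots above all Yunquera roots, against 8.79% of all features, and 4 had the opposite order. Of 125 lower features, 56 (44.8%) kept the lower order, against 7.46%, and 0 were opposite. Needles and roots carry the same tree numbers, which may name the same trees, so these shares may not be independent of the needle result. In roots as a whole 256 of 18364 features (1.39%) were called; 16 of the higher and 28 of the lower needle features were among them in the same direction. The ROOT HAIR DEFECTIVE 3 homologue was among them, with a log2 fold change of -7.61 in roots.

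Several ELIP features that differed in needles were not detected in roots at this depth: Gene_44285, Gene_5671 and Gene_71524 had no count in any autumn root library of either site. Gene_2963, the most abundant in needles, had 2.26, 2.85 and 10.8 CPM in Ronda roots and 3.98, 1.12 and 1.22 CPM in Yunquera roots, which overlapped. Gene_228 was at needle-like levels in roots, with 481, 385 and 494 CPM at Ronda and 314, 365 and 428 CPM at Yunquera. Gene_4036 had 235, 451 and 153 CPM in Ronda roots and 16.6, 116 and 0.144 CPM in Yunquera roots, so the groups lay apart, with a log2 fold change of 2.68 (SE 1.23) that was not called. Gene_2947 had a root log2 fold change of 1.13 (SE 0.40), with groups that overlapped. No ELIP feature was called in roots by edgeR, where the smallest adjusted p was 0.119.

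The site difference itself differed between needles and roots in 6 of 18364 features (0.0327%) by edgeR. GOLS2 (Gene_10499) had the largest such difference: it was higher at Ronda in needles, as given above, but in roots it had 21.9, 17.4 and 11.7 CPM at Ronda and 302, 159 and 79.5 CPM at Yunquera. Its needle-minus-root difference in log2 fold change was 7.93 (SE 0.88, edgeR adjusted p = 0.0172). GOLS1 (ap_34676) had the same form, with 10.8, 30.8 and 28.4 CPM in Ronda needles and 2.60, 0.913 and 1.62 CPM in Yunquera needles. Its roots had 25.6, 14.7 and 11.9 CPM at Ronda and 153, 161 and 96.1 CPM at Yunquera, a difference of 6.71 (SE 0.74, edgeR adjusted p = 0.0172). With the tree as a block, 0 of the 6 were called.

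**Figure D5:**
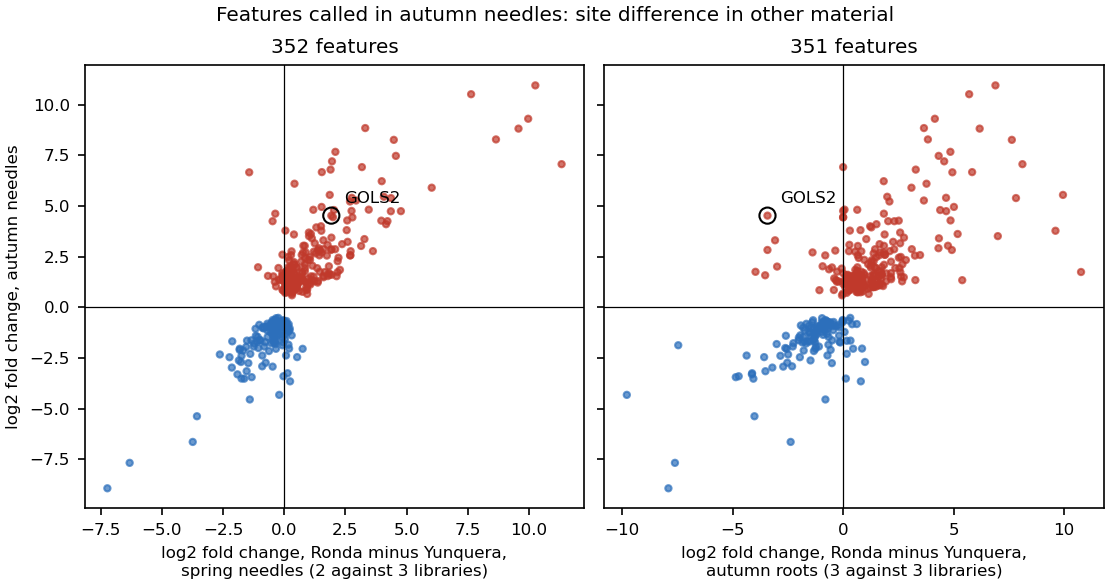
Log2 fold changes, Ronda minus Yunquera, of the features called in autumn needles (y axis) against the same site difference in spring needles (left panel, 352 features) and autumn roots (right panel, 351 features). Red points are higher and blue points lower at Ronda in autumn needles; GOLS2 is circled and lies at 4.52 in autumn needles and -3.42 in roots.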

How the data were processed

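Per the labels, the authors deposited raw read counts per feature for 24 libraries; CASAVA, HISAT2 and featureCounts were used, per the submitters' processing notes. No version, setting, strand choice or genome build is given in the sources used here. The gene lengths deposited beside the counts were not used in a test. Every library column matched 1 sample.

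The test was edgeR's (4.0.16, R 4.3.3) quasi-likelihood F test with TMM factors, after filterByExpr at a minimum count of 10 and a minimum total of 15. It fitted 4 group means in 11 needle libraries, leaving out a spring Ronda needle library with root-type transcripts, and Benjamini-Hochberg adjustment over all features tested at 0.05. The SE is the absolute log2 fold change over the square root of F. Levels are CPM with TMM factors over 22 libraries. A chi-square comparison put every replicate pair beyond sampling noise. Intervals and floors (3 counts) cover counting error only; 3 counts are 0.119 to 0.185 CPM in a library.

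Features were put in 32 lists and marker sets by patterns in best-hit names and domains. The members and lists were chosen with earlier results of these data known. The low-phosphate and ascorbate lists were added after values were seen and then narrowed to best-hit names. Patterns for early light-induced, light-harvesting, dehydrin, cell wall and sugar features were also adjusted then. A gene was named if it was called with groups apart, changed at least 1 on the log2 scale, had a best-hit name and averaged 5 CPM or more where higher; taken were up to 3 per list by adjusted p, the 8 largest rises and falls and the 5 highest levels. Members of the 2 added lists, INVB, GOLS, RFS and unlisted extras (FAD6, FAD12, the second FAD4 hit, SDP1, the second XERICO hit and uncalled members) were named after their values were seen.

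Same-numbered libraries of the sites correlated in their deviations from the group mean at 0.018, 0.213 and 0.038, so the numbers were not taken as pairs. The code was run on simulated counts with known changes. Those counts were drawn independently for each library, so the run cannot show the effect of trees shared between libraries. Alternatives used limma 3.58.1, DESeq2 1.42.0, other factors, filters and libraries.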

Additional observations from a re-analysis of the deposited data

Results flagged for a closer look

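In 6 features the site difference in autumn needles differed from that in autumn roots by edgeR's test of the interaction, at adjusted p of 0.0172 to 0.0374. The difference, needles minus roots on the log2 scale, was 7.93 for GOLS2 (Gene_10499), 6.71 for GOLS1 (ap_34676), 6.35 for the lectin receptor kinase LECRK43 (ap_90109) and 5.53 for the calcium-binding protein CML25 (Gene_13644). It was -6.45 for the acyltransferase At1g54570 (Gene_76072) and -6.16 for the cadmium tolerance protein CDT1 (ap_4040).

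CML25 had 98.2, 66.4 and 60.7 CPM in Ronda needles and 36.6, 22 and 31.0 CPM in Yunquera needles, while its roots had 5.70, 4.03 and 5.93 CPM at Ronda and 93.9, 37.8 and 162 CPM at Yunquera. LECRK43 and CDT1 overlapped between sites in needles. In roots LECRK43 had 0.411, 0.786 and 0.285 CPM at Ronda and 81.9, 21.2 and 62.2 CPM at Yunquera, and CDT1 had 2.47, 1.87 and 5.59 CPM at Ronda and 0.0523, 0 and 0.0719 CPM at Yunquera. At1g54570 had 37.9, 56.8 and 46.1 CPM in Ronda needles and 22, 26.9 and 25.6 CPM in Yunquera needles, and its roots had 6.78, 3.98 and 2.68 CPM at Ronda and 0, 0 and 0.0719 CPM at Yunquera. With Yunquera roots near 0, the fitted differences of these last 2 depend on the prior count.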

How the results depend on the processing

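Of 918 values of the 54 named genes over 17 alternatives, 587 kept their direction and side of the threshold, 331 kept the direction only and 0 reversed. Named genes were chosen with groups apart in these same libraries, so the lack of reversals was close to fixed by the choice. Leaving out 1 library gave 28 to 218 called features, 18 to 123 higher and 10 to 95 lower; 9 named genes were called in all 6 such fits. The 6 autumn needle libraries alone gave 542 calls, 243 of them lower. All 12 needle libraries gave 36 (21 higher, 15 lower), and the 12 autumn libraries 15 (10 higher, 5 lower). DESeq2 gave 2222 (1109 higher, 1113 lower). A stricter filter gave 194 lower. A replicate block by title number gave 139 (89 higher, 50 lower); with the tree as a block limma gave 315, and the site by organ count was 0. DESeq2 called 220 features for site by season and 123 for site by organ. Causes were not tested; fits without a library have fewer samples. Without both needle libraries of tree 1, 46 of the 54 named genes were called. Having 3 libraries a group and, for low features, the floor limits what these data can show.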
